A study of Drosophila melanogaster with 8 samples.

Results

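The translation factors and aminoacyl-tRNA synthetases were followed in the intestine of adult female Drosophila melanogaster that were fed GlcNAc during calorie restriction. Members were taken by name from the deposited table, as every gene whose symbol began with eIF, eEF, eRF, Ef1 or Aats-, or was built like AlaRS, a 3-letter amino acid followed by RS. The rule found 61 of the 7671 genes in the table. It used no measured value itself, but was set with earlier results of these data known. The table held only genes that passed the authors' expression filter in these libraries. They were 24 initiation factors, 7 elongation and release factors, 15 cytosolic synthetases and 15 mitochondrial synthetases, the last having symbols that end in -m. The factor eIF-5A was counted with the elongation factors, where its current name eEF5 places it. Annotated members without a row in the table, among them GlyRS, SerRS, eIF4B and eIF4E3, were not analysed here.

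The GlcNAc group was 7-day-old mated females kept for 24 hours on food diluted to 0.25 of its normal strength with 0.1 M N-acetyl-D-glucosamine (GlcNAc), an amino sugar that feeds the hexosamine biosynthesis pathway. The control group was kept on the same diluted food without GlcNAc, and both groups carried the same alleles. These were UAS-mCD8::GFP with hsFLP, one copy of tub-GAL4, which is written tub-GAL4/+, and, on the third chromosome, the combination FRT82B tub-GAL80/FRT82B, a stock made for marked clones in which the ubiquitous tubulin promoter drives GAL4 and its inhibitor GAL80. There were 4 samples in each group, which the study's methods describe as independent and as sampled in parallel between the groups. A library of poly(A) RNA was made from each one. Reads on the listed genes were 9281492 to 10326189 in GlcNAc and 8839877 to 9838415 in control. The number of intestines in a sample was not stated in the sources used here. The labels give glucosamine as the treatment and whole larvae as the source, against GLUCNAC in the titles and intestine as the tissue, and the study's methods name GlcNAc and dissected intestines. Whole intestines hold enterocytes, hormone-secreting enteroendocrine cells, progenitors and visceral muscle, so that fewer cells of a type and less RNA per cell cannot be told apart.

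Protein synthesis starts when eIF2, loaded with GTP and the initiator tRNA, joins the small ribosomal subunit together with eIF3, while the eIF4 factors bring in the capped mRNA. After each start eIF2 is recharged with GTP by its exchange factor eIF2B, and this step is blocked when stress kinases such as PEK and Gcn2 phosphorylate eIF2 alpha. Elongation factors then deliver each aminoacyl-tRNA and move the ribosome, and release factors end the chain. The synthetases charge each tRNA with its amino acid, with one set of enzymes working in the cytosol and another in the mitochondria, all encoded in the nucleus. In many eukaryotes the transcription factor ATF4, called crc in flies, raises transcription of synthetase genes when amino acids are short or the endoplasmic reticulum is stressed.

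Markers of the cells in the gut were measured in the same libraries. Of 6 progenitor markers, 0 passed the test used below (limma on all genes, Benjamini-Hochberg adjusted p under 0.05), and 0 did so at an unadjusted p under 0.05. Their summed level was 129 to 165 CPM (read counts scaled to library size) in GlcNAc and 127 to 150 CPM in control. Of 9 measured enteroendocrine markers of 10 listed, AstA, CCHa2 and Dh31 rose, and the sum was 324 to 366 CPM in GlcNAc and 274 to 343 CPM in control. Of the 9, 8 had a positive log2 fold change. The other, AstC, averaged 79.2 CPM in GlcNAc and 87.8 CPM in control (log2 fold change -0.15 ± 0.10, limma adjusted p = 0.368). Enterocyte markers summed to 47611 to 53254 CPM in GlcNAc and 57306 to 66555 CPM in control, with the protease gene Jon99Cii lower among 5 measured of 6. Most of this sum was the digestive protease genes alphaTry and Jon65Aiv, which averaged 19115 and 26799 CPM in GlcNAc and 21651 and 34328 CPM in control. The enterocyte transcription factor gene nub had the opposite sign, with 280 to 349 CPM in GlcNAc and 257 to 335 CPM in control (log2 fold change 0.21 ± 0.10, limma adjusted p = 0.203). The muscle markers summed to 742 to 1032 CPM in GlcNAc and 909 to 1282 CPM in control, with Act57B lower among 7. Ovary and germ line markers, of which 3 of 10 were measured and 0 changed, varied between libraries from 80.6 to 268 CPM in GlcNAc and from 23.0 to 535 CPM in control. Of the fat body list 2 of 4 markers were measured and 0 changed, and of the Malpighian tubule list only Best2 of 5 was measured, which rose. The part of these shifts in the results below was not tested.

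Among the 61 members 12 rose on GlcNAc and 1 fell. Over all 7671 genes 15.3% passed the threshold, 8.75% as higher and 6.6% as lower. Of the members 19.7% were called higher and 1.64% lower, and these shares are a description without a test. Without GlcNAc replicate 1 or without control replicate 3, 6 members were called higher, which is 9.84%. The median log2 fold change, GlcNAc minus control, was 0.04 over the members and 0.01 over all genes. By class, of the 15 cytosolic synthetases 8 rose and 0 fell, with a median of 0.29, and 5 were called without GlcNAc replicate 1, control replicate 3 or control replicate 4. Of the 24 initiation factors 4 rose and 0 fell, with a median of 0.04. Without GlcNAc replicate 1 or 3 or control replicate 1 or 3 only eIF-2beta was called among them, and without control replicate 2 or 4 there were 2 calls. The 7 elongation and release factors had 0 calls by limma and a median of -0.06, with 0 higher and 1 lower at an unadjusted p under 0.05. The 15 mitochondrial synthetases had 0 calls as higher, 1 as lower and a median of -0.03. GlcNAc and control libraries did not overlap for 20 of 61 members, against 1571 of all 7671 genes (20.5%). Of these 20 members 10 were cytosolic synthetases.

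**Figure D1:**
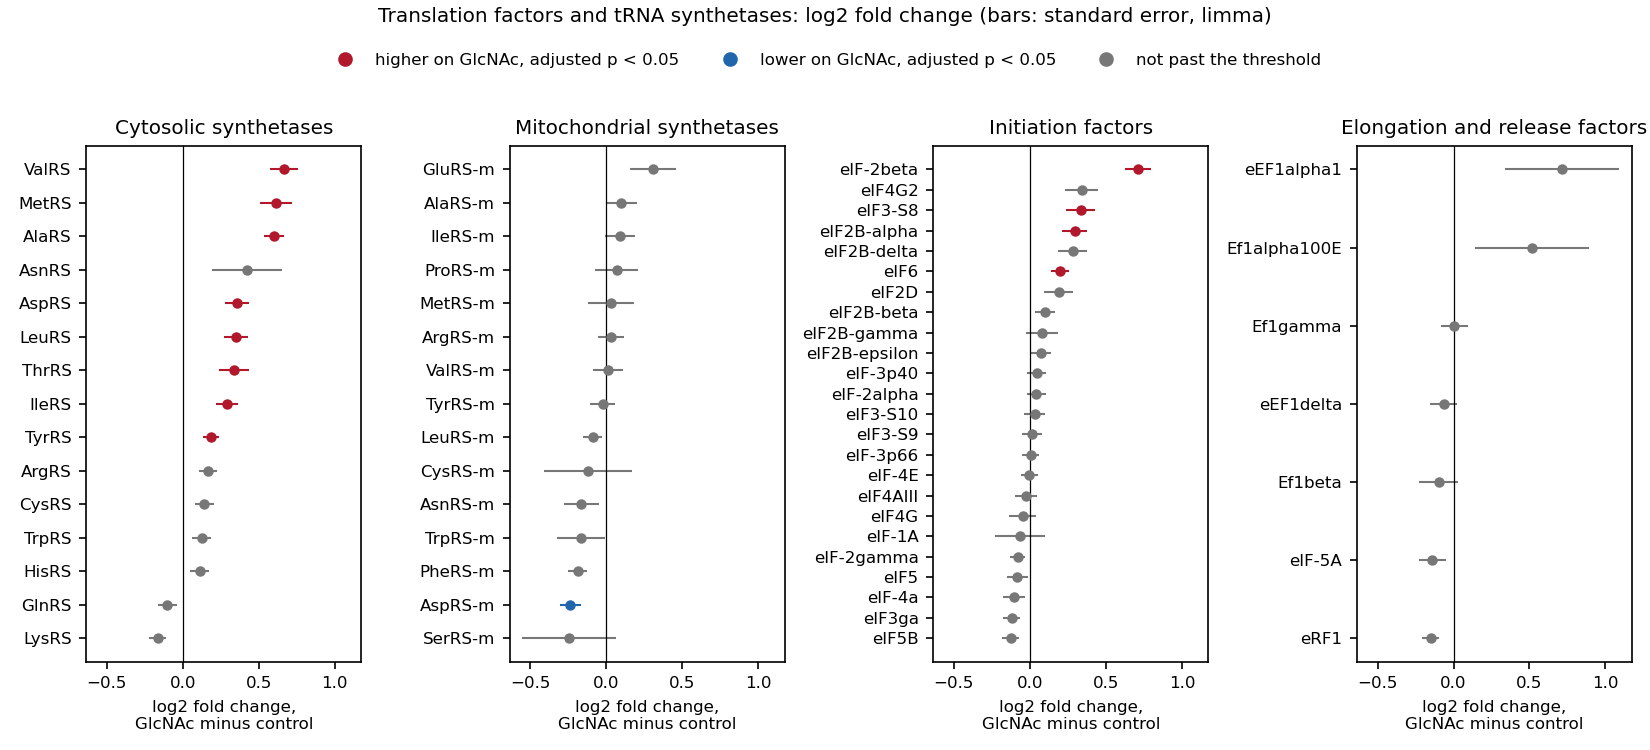
Log2 fold change (GlcNAc minus control, horizontal axis) of each of the 61 members, in 4 panels by class, with bars for the limma standard error and colour for the call. The 8 called cytosolic synthetases lie between 0.19 and 0.67, while the mitochondrial synthetases lie around 0, with AspRS-m at -0.24 as the only call.

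The cytosolic synthetases formed the group with the most calls. Their summed level was 2627, 2358, 2677 and 2446 CPM in the 4 GlcNAc libraries, against 2155, 2038, 1966 and 2001 CPM in the 4 control libraries. Every GlcNAc library was above every control library, with means of 2527 ± 150 CPM in GlcNAc and 2040 ± 82.2 CPM in control (SD, n = 4 each). By gene, 13 of 15 had a positive log2 fold change, and 10 had groups that did not overlap, 9 with GlcNAc above and 1 with GlcNAc below. Over all 7671 genes the groups of 20.5% did not overlap. Beside this, the enteroendocrine marker sum was higher in GlcNAc on average, the protease-rich enterocyte sum was lower and nub had a log2 fold change of 0.21, as given above.

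The largest fold changes were those of ValRS, MetRS and AlaRS, which charge the tRNAs of valine, methionine and alanine. ValRS had 258, 227, 281 and 251 CPM in GlcNAc libraries, against 186, 156, 145 and 156 CPM in control libraries. The lowest GlcNAc library of ValRS was thus well above the highest control library, and ValRS rose by 0.67 ± 0.09 (log2, SE, limma adjusted p = 0.000928). AlaRS had 269, 232, 256 and 251 CPM in GlcNAc libraries, against 178, 169, 154 and 164 CPM in control libraries. The groups of AlaRS did not overlap either, with a log2 fold change of 0.60 ± 0.07 (limma adjusted p = 0.000285), a 1.52-fold difference. MetRS had 141, 117, 153 and 136 CPM in GlcNAc libraries, against 107, 83.8, 85.4 and 81.4 CPM in control libraries. Control replicate 1 came closest to the GlcNAc libraries for MetRS, without reaching them, and the log2 fold change was 0.61 ± 0.10 (limma adjusted p = 0.00324).

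Smaller increases were found for 5 further cytosolic enzymes. AspRS, the aspartate enzyme and the most abundant member of the class by CPM, had 634, 577, 700 and 583 CPM in GlcNAc libraries, against 537, 460, 479 and 470 CPM in control libraries. AspRS rose by 0.36 ± 0.08 (limma adjusted p = 0.0144) with no overlap. LeuRS, the leucine enzyme, had 154, 118, 145 and 141 CPM in GlcNAc libraries, against 110, 109, 108 and 110 CPM in control libraries. The control libraries of LeuRS were close together, with an SD of 1.29 CPM, the groups did not overlap, and LeuRS rose by 0.35 ± 0.08 (limma adjusted p = 0.0139). IleRS, the isoleucine enzyme, had 243, 216, 217 and 212 CPM in GlcNAc libraries, against 180, 199, 166 and 182 CPM in control libraries, and rose by 0.29 ± 0.07 (limma adjusted p = 0.021). ThrRS, the threonine enzyme, rose by 0.34 ± 0.10 (limma adjusted p = 0.0405), with 47.2 to 61.9 CPM in GlcNAc and 38.2 to 45.7 CPM in control. TyrRS, the tyrosine enzyme, rose by 0.19 ± 0.05 (limma adjusted p = 0.0428), with 187 to 203 CPM in GlcNAc and 165 to 179 CPM in control. The calls of ValRS, AlaRS, MetRS, AspRS and LeuRS were kept with any 1 library left out. The call of IleRS was lost without GlcNAc replicate 1, control replicate 3 or control replicate 4 (adjusted p up to 0.0592). ThrRS lost its call without GlcNAc replicate 1, 3 or 4 or control replicate 3 or 4 (up to 0.109), and TyrRS lost its call without any 1 of the 8 libraries (0.0564 to 0.106).

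**Figure D2:**
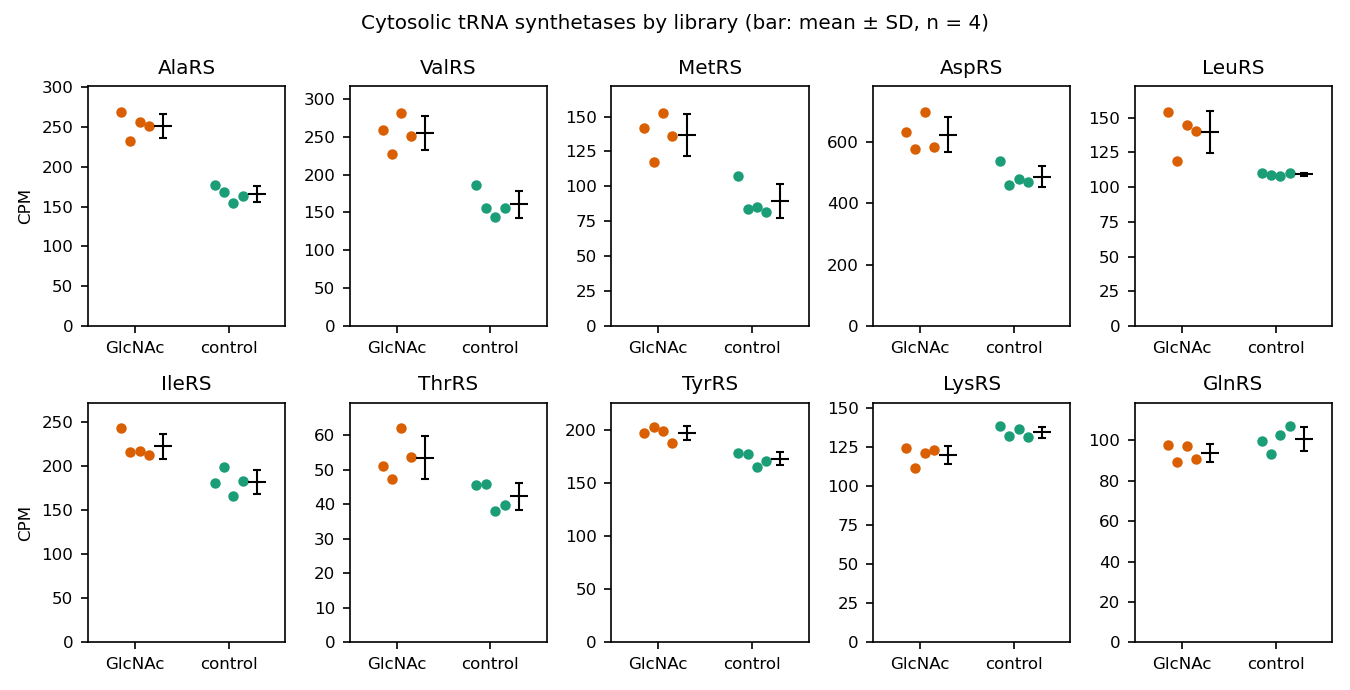
CPM of 10 cytosolic synthetases in each library (points), GlcNAc left and control right, with the mean and SD of 4 libraries beside them, each vertical axis starting at 0. For the first 8 enzymes every GlcNAc library lies above every control library, for LysRS every GlcNAc library lies below, and for GlnRS the groups overlap.

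The other 7 cytosolic synthetases did not pass the threshold. ArgRS, the arginine enzyme, had 83.6 to 91.9 CPM in GlcNAc and 74.7 to 83.2 CPM in control, with a log2 fold change of 0.17 ± 0.06 (limma adjusted p = 0.0907). LysRS, the lysine enzyme, had 125, 112, 121 and 124 CPM in GlcNAc libraries, against 138, 132, 137 and 132 CPM in control libraries. All GlcNAc libraries of LysRS were below all control libraries, with a log2 fold change of -0.16 ± 0.06 (limma adjusted p = 0.0796). GlnRS, the glutamine enzyme, was the other member with a negative value, at -0.10 ± 0.06 (limma adjusted p = 0.339). CysRS, TrpRS and HisRS had log2 fold changes between 0.11 and 0.14. AsnRS had few reads, 15 to 35 per library, and its log2 fold change of 0.42 ± 0.23 had a wide interval that ran from -0.09 to 0.93.

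By chemistry, the 4 enzymes for the branched-chain amino acids and methionine, IleRS, LeuRS, ValRS and MetRS, all rose, and their log2 fold changes had a median of 0.48. Of the 11 remaining cytosolic synthetases 4 rose, with a median of 0.17. In mammals a part of the synthetases is held in a multi-enzyme complex. The 7 fly counterparts that are members here, ArgRS, AspRS, GlnRS, IleRS, LeuRS, LysRS and MetRS, had 4 calls as higher and a median of 0.29, and the 8 others had 4 calls as higher and a median of 0.26. These groups were formed after the values were seen, and no difference between them was tested. The called enzymes also had longer coding sequences, with a median of 2.98 kb (range 1.57 to 3.69 kb) for the 8 called and 1.82 kb (range 1.29 to 2.33 kb) for the 7 not called, as a description without a test.

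GluProRS, a fusion of the glutamate and proline enzymes whose name falls outside the rule, was looked up after the values were seen. It had 258, 234, 246 and 232 CPM in GlcNAc libraries, against 172, 178, 155 and 163 CPM in control libraries. The groups were far apart, and GluProRS rose by 0.54 ± 0.06 (limma adjusted p = 0.000428). The genes of the phenylalanine enzyme, alpha-PheRS and beta-PheRS, had log2 fold changes of 0.00 ± 0.06 and 0.10 ± 0.06 and did not pass. The scaffold genes AIMP1, AIMP2 and AIMP3, which hold the complex together in mammals, and Slimp, a mitochondrial relative of the serine enzyme, had 0 calls by limma among 4, with 1 higher at an unadjusted p under 0.05 and a median of 0.06.

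Mitochondrial synthetases were measured at much lower levels than the cytosolic ones, with a summed level of 310, 301, 297 and 291 CPM in GlcNAc libraries, against 308, 315, 325 and 325 CPM in control libraries. The sums averaged 299 ± 8.06 CPM in GlcNAc and 318 ± 8.46 CPM in control (SD, n = 4 each), and the groups overlapped. AspRS-m, the mitochondrial aspartate enzyme, was the only one that passed. It had 52.3, 55.3, 48.8 and 49.4 CPM in GlcNAc libraries, against 57.8, 65.0, 59.2 and 60.4 CPM in control libraries. All GlcNAc libraries of AspRS-m were below all control libraries, and AspRS-m fell by 0.24 on the log2 scale (-0.24 ± 0.07, limma adjusted p = 0.0372). The call was lost without GlcNAc replicate 1, 3 or 4 or without control replicate 2, 3 or 4 (adjusted p up to 0.105). PheRS-m, the mitochondrial phenylalanine enzyme and the most abundant of the class by CPM, had 59.97 to 67.9 CPM in GlcNAc and 69.7 to 74.0 CPM in control, again without overlap (-0.19 ± 0.06, limma adjusted p = 0.0596). LeuRS-m, the leucine enzyme, had 40.8 to 43.2 CPM in GlcNAc and 42.6 to 46.8 CPM in control (-0.09 ± 0.06, limma adjusted p = 0.409). The lowest member by CPM, CysRS-m, rested on 7 to 12 reads per library and met the authors' expression filter only in control. GluRS-m, the glutamate enzyme, had 5.30 to 7.49 CPM in GlcNAc and 4.43 to 5.87 CPM in control, and did not pass (0.31 ± 0.15, limma adjusted p = 0.224). SerRS-m, the serine enzyme, had 1.08 to 1.68 CPM in GlcNAc and 1.06 to 2.40 CPM in control (-0.25 ± 0.31, limma adjusted p = 0.673).

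For 11 amino acids both the cytosolic and the mitochondrial synthetase were members, so the ratio of the enzymes could be taken within each library. The ratio of cytosolic to mitochondrial mRNA was higher on average in GlcNAc for all 11. For 5 of them, alanine, aspartate, leucine, methionine and valine, every GlcNAc library was above every control library (two-sided exact permutation test, p = 0.0286 each, the smallest p that 4 against 4 libraries allow, and 0.0629 after Benjamini-Hochberg adjustment over the 11 pairs, which misses 0.05). The cytosolic enzymes of these 5 pairs were all called higher above. The ratios use the same values, so neither their p nor the count of 11 is separate support. The widest gap was that of valine, with a log2 ratio of 4.80 ± 0.12 in GlcNAc and 4.15 ± 0.14 in control (SD, n = 4 each). The aspartate ratio was 3.60 ± 0.19 in GlcNAc and 3.00 ± 0.16 in control, where the cytosolic enzyme rose and the mitochondrial enzyme fell. The asparagine pair stood apart in its level, since its log2 ratio was below 0 in all libraries, at -1.93 ± 0.34 in GlcNAc and -2.52 ± 0.22 in control, and its groups overlapped (exact permutation p = 0.0571, adjusted 0.0786). The other pairs, arginine, cysteine, isoleucine, tryptophan and tyrosine, overlapped too, with exact permutation p from 0.0571 to 0.229 (0.0786 to 0.229 adjusted).

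**Figure D3:**
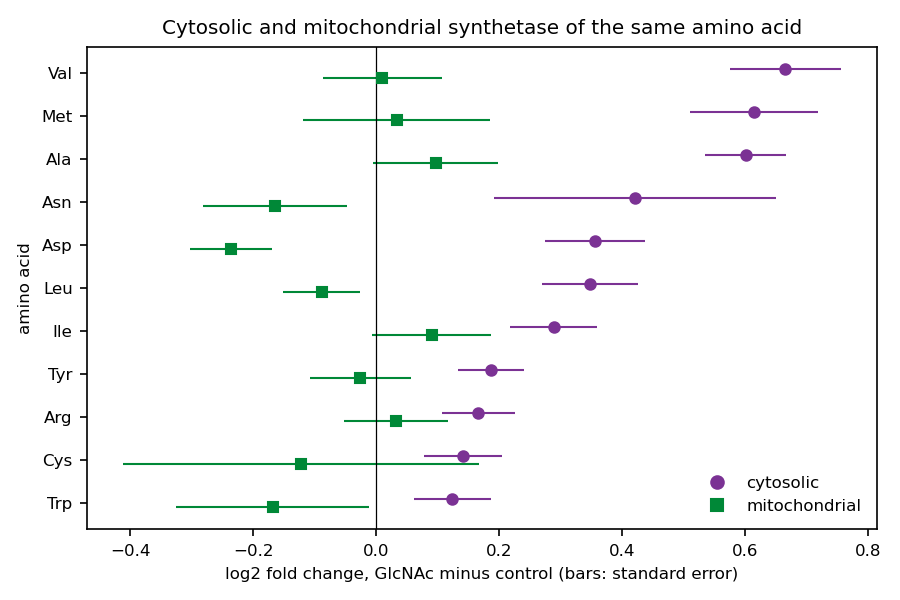
Log2 fold change (GlcNAc minus control, horizontal axis, bars for the limma standard error) of the cytosolic synthetase (circles) and the mitochondrial synthetase (squares) of 11 amino acids. The cytosolic enzyme lies to the right of the mitochondrial enzyme for all 11, from valine at 0.67 and 0.01 to tryptophan at 0.12 and -0.17.

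Among initiation factors the main change was in 1 subunit of eIF2, the factor that carries the initiator tRNA. The gene of its beta subunit, eIF-2beta, lies on chromosome arm 3L from 12525093 to 12526731 on the minus strand (BDGP6, Release 6). eIF-2beta had 544, 501, 610 and 484 CPM in GlcNAc libraries, against 335, 350, 298 and 323 CPM in control libraries. The lowest GlcNAc library was far above the highest control library, and eIF-2beta rose by 0.71 ± 0.08 (log2, SE), a 1.64-fold difference (limma adjusted p = 0.000432). Its call was kept with any 1 library left out (adjusted p up to 0.00256).

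The other subunits of eIF2 did not pass. eIF-2alpha, the subunit that stress kinases phosphorylate, had 121, 125, 126 and 120 CPM in GlcNAc libraries, against 125, 125, 107 and 122 CPM in control libraries. These overlapped, with a log2 fold change of 0.04 ± 0.06 (limma adjusted p = 0.737). eIF-2gamma, which binds GTP and the tRNA, had 148 to 152 CPM in GlcNAc and 154 to 165 CPM in control (-0.08 ± 0.05, limma adjusted p = 0.345), and 16% of its exonic bases are shared with Su(var)3-9 on the same strand. Within each library the ratio of eIF-2beta to eIF-2alpha reads was 4.35 ± 0.408 in GlcNAc and 2.73 ± 0.0807 in control, and that of eIF-2beta to eIF-2gamma was 3.56 ± 0.374 in GlcNAc and 2.05 ± 0.0872 in control (SD, n = 4 each). The ratio of eIF-2alpha to eIF-2gamma was 0.818 ± 0.0276 in GlcNAc and 0.752 ± 0.0416 in control. None of the 3 ratios overlapped between the groups (exact permutation p = 0.0286 for each, the smallest the design allows, and 0.0286 after adjustment over the 3). Both ratios with eIF-2beta use the same values as its call above, so their p is no separate support. For eIF-2alpha to eIF-2gamma the margin was small, with a lowest GlcNAc library of 0.790 and a highest control library of 0.783.

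The exchange factor eIF2B has 5 subunits, and all 5 had a positive log2 fold change. eIF2B-alpha, a regulatory subunit, had 36.2, 29.8, 36.0 and 32.2 CPM in GlcNAc libraries, against 27.7, 26.1, 26.5 and 28.9 CPM in control libraries. The groups did not overlap, though by less than 1 CPM between the nearest libraries, and eIF2B-alpha rose by 0.29 ± 0.08 (limma adjusted p = 0.0363). This call was lost without any 1 library other than GlcNAc replicate 2 (adjusted p up to 0.101). eIF2B-delta, another regulatory subunit, had 30.5 to 39.3 CPM in GlcNAc and 25.9 to 31.1 CPM in control (0.28 ± 0.09, limma adjusted p = 0.0757). The catalytic subunit eIF2B-epsilon had 0.07 ± 0.06, and eIF2B-beta and eIF2B-gamma had 0.10 ± 0.07 and 0.08 ± 0.11, with none of these past the threshold.

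**Figure D4:**
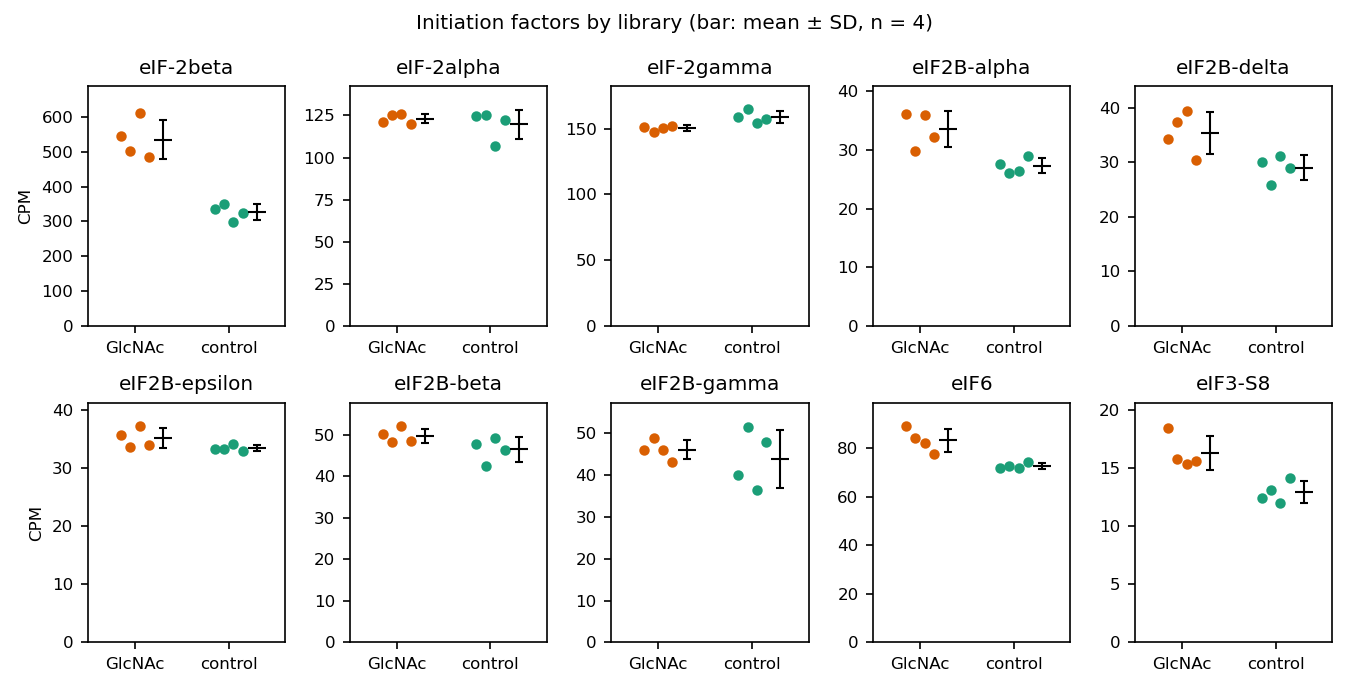
CPM of 10 initiation factors in each library (points), GlcNAc left and control right, with the mean and SD of 4 libraries beside them, each vertical axis starting at 0. The GlcNAc libraries of eIF-2beta, between 484 and 610 CPM, are far above its control libraries, whereas eIF-2alpha overlaps and eIF-2gamma lies slightly lower in GlcNAc.

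Of the 6 members that are subunits of eIF3, the scaffold of the initiation complex, 1 passed the threshold. Further eIF3 subunits have names outside the rule and are counted below. eIF3-S8 (now eIF3c) had 18.5, 15.8, 15.3 and 15.6 CPM in GlcNAc libraries, against 12.4, 13.1, 12.0 and 14.1 CPM in control libraries. Its groups did not overlap and eIF3-S8 rose by 0.33 ± 0.10 (limma adjusted p = 0.0405), a call that was lost with any 1 library left out except control replicate 4 (adjusted p up to 0.109). The value rests on 107 to 179 reads per library, and its mean CPM was far below the 216 to 623 CPM of the other 5 subunits among the members. Those subunits had log2 fold changes from -0.12 for eIF3ga to 0.05 for eIF-3p40. eIF3ga had 206.9 to 221.6 CPM in GlcNAc and 222.2 to 245.0 CPM in control, so that the groups did not overlap, by a small margin, with GlcNAc below, and it did not pass (limma adjusted p = 0.193). eIF3-S10, eIF3-S9 and eIF-3p66 lay between eIF3ga and eIF-3p40 at 0.03, 0.01 and 0.00. The difference of eIF3-S8 from the other subunits was not tested.

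The cap-binding and mRNA-loading factors of the eIF4 group had 0 calls by limma among 4, with 1 higher and 0 lower at an unadjusted p under 0.05. eIF-4a, the RNA helicase that unwinds the mRNA leader and the most abundant initiation factor by CPM, had 1474 to 1624 CPM in GlcNAc and 1602 to 1723 CPM in control (-0.11 ± 0.07, limma adjusted p = 0.385). The cap-binding protein gene eIF-4E had 195 to 209 CPM in GlcNAc and 194 to 216 CPM in control (0.00 ± 0.05). The scaffold gene eIF4G had 859 to 1022 CPM in GlcNAc and 850 to 1084 CPM in control (-0.05 ± 0.09), both overlapping widely. eIF4G2, a relative of eIF4G best known from the male germ line of flies, had 37.6, 36.8, 47.7 and 45.8 CPM in GlcNAc libraries, against 34.0, 37.1, 31.2 and 29.9 CPM in control libraries. Control replicate 2 reached the lower GlcNAc libraries, and eIF4G2 missed the threshold at 0.34 ± 0.11 (limma adjusted p = 0.0571).

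Of the 6 remaining initiation factors eIF6 rose. eIF6 keeps the large ribosomal subunit from joining too early, and had 89.0, 84.3, 82.2 and 77.7 CPM in GlcNAc libraries, against 71.7, 72.5, 71.8 and 74.4 CPM in control libraries. The groups of eIF6 did not overlap, with a log2 fold change of 0.20 ± 0.06 (limma adjusted p = 0.0471), and the call was lost without any 1 library other than GlcNAc replicate 4 (adjusted p up to 0.124). eIF5B, the GTPase that joins the subunits, had 153 to 157 CPM in GlcNAc and 158 to 181 CPM in control, without overlap but not past the threshold (-0.13 ± 0.06, limma adjusted p = 0.184). eIF2D, which can deliver tRNA outside the eIF2 route, had 40.6 to 48.8 CPM in GlcNAc and 32.0 to 41.4 CPM in control (0.19 ± 0.10, limma adjusted p = 0.243). eIF-1A, eIF5 and eIF4AIII had log2 fold changes of -0.06, -0.08 and -0.03, and eIF4AIII was placed in this class by its symbol alone. In the annotation used here 80.8% of the exonic bases of eIF5 are shared with CG46312 on the same strand. Whether the authors' annotation held CG46312 was not tested, so the reads of eIF5 may be uncertain.

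Elongation and release factors had 0 calls, as given above. Ef1gamma, a subunit of the elongation factor eEF1 and the most abundant member of all by CPM, had 1821, 1917, 1655 and 1671 CPM in GlcNAc libraries, against 1766, 1934, 1583 and 1755 CPM in control libraries. Its groups overlapped throughout, with a log2 fold change of 0.01 ± 0.09 and an interval from -0.19 to 0.20. eIF-5A, which helps the ribosome past difficult peptides, had 561 to 694 CPM in GlcNAc and 619 to 762 CPM in control (-0.14 ± 0.09, limma adjusted p = 0.359). The release factor eRF1, which recognises stop codons, had 191, 190, 194 and 189 CPM in GlcNAc libraries, against 224, 220, 198 and 207 CPM in control libraries. All GlcNAc libraries of eRF1 were below all control libraries, and eRF1 missed the threshold at -0.15 ± 0.06 (limma adjusted p = 0.11). The exchange subunits Ef1beta and eEF1delta had -0.10 ± 0.13 and -0.06 ± 0.09.

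The genes for the tRNA-delivering subunit of eEF1 were measured near the detection limit. eEF1alpha1 had 1.70, 1.41, 2.80 and 1.67 CPM in GlcNAc libraries, against 1.93, 1.17, 0.613 and 1.11 CPM in control libraries. Its relative Ef1alpha100E had 1.18, 1.30, 1.07 and 0.526 CPM in GlcNAc libraries, against 0.677, 0.727, 0.613 and 0.688 CPM in control libraries. Both overlapped between the groups, rested on 5 to 27 reads and 5 to 12 reads per library, and had standard errors of 0.38. Ef1alpha100E met the authors' filter, above 1 CPM in at least 3 of 4 replicates, only in GlcNAc, so the filter itself favours a higher GlcNAc value. The eEF1 subunit that these genes encode is known as one of the most abundant proteins of animal cells. The genes are close relatives and the authors discarded reads of low mapping quality, so the values are uncertain, and the part of this step was not tested.

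Levels can be set side by side between genes only per length, here as CPM per kb of coding sequence. On this scale eIF-2beta was at 572 ± 60.1 in GlcNAc and 349 ± 23.8 in control, well above eIF-2alpha at 120 ± 2.63 in GlcNAc and 117 ± 8.51 in control and eIF-2gamma at 106 ± 1.46 in GlcNAc and 112 ± 3.15 in control (SD, n = 4 each). The subunits of eIF2B were lower, from 17.5 ± 0.850 for eIF2B-epsilon to 47.1 ± 1.61 for eIF2B-beta in GlcNAc, and from 15.4 ± 1.20 for eIF2B-delta to 44.0 ± 2.77 for eIF2B-beta in control. eIF3-S8 was at 5.97 ± 0.530 in GlcNAc and 4.73 ± 0.342 in control, where the other eIF3 subunits were between 119 and 385. AsnRS was at 1.75 ± 0.428 in GlcNAc and 1.29 ± 0.182 in control, where the other 14 cytosolic synthetases were between 18.9 and 391. No exonic base of eIF3-S8, AsnRS, eEF1alpha1 or Ef1alpha100E is shared with another gene on the same strand in the annotation used, and the reason for their low levels was not tested.

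**Figure D5:**
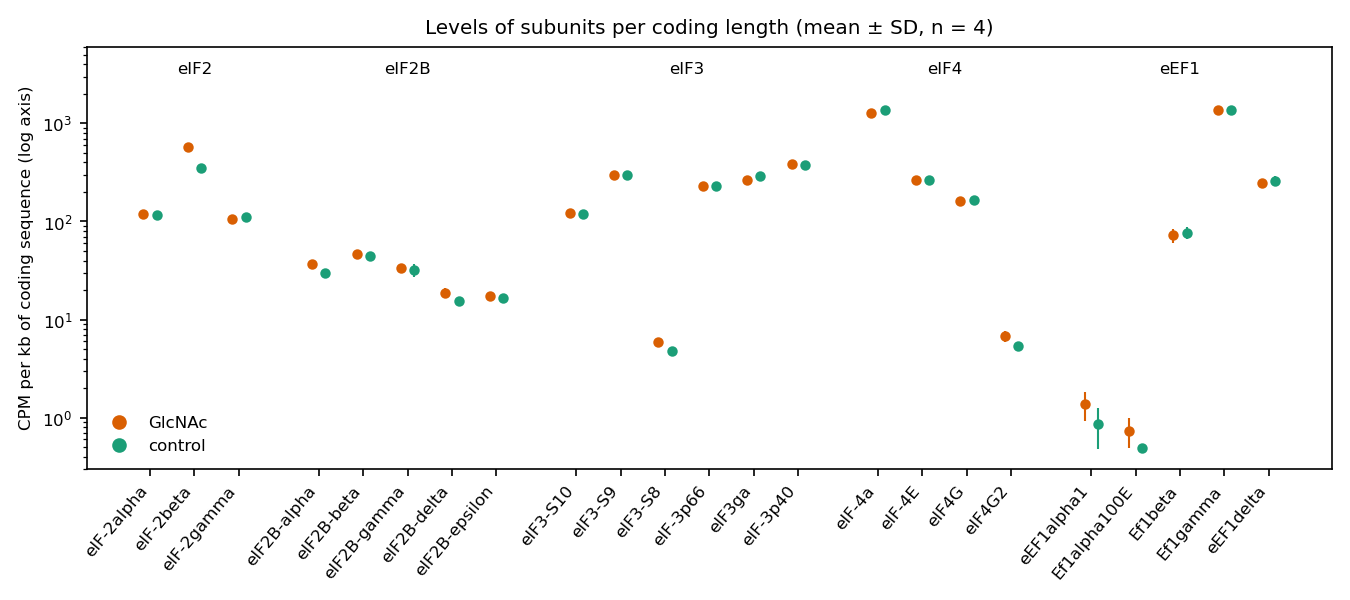
Level of the members that belong to eIF2, eIF2B, eIF3, eIF4 and eEF1 as CPM per kb of coding sequence (vertical log axis). GlcNAc is left and control right of each tick, with the SD of 4 libraries as bars. eIF-2beta lies above its partners, and eIF3-S8, eEF1alpha1 and Ef1alpha100E lie far below theirs.

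By position, 5 of 16 members rose on chromosome arm 2R and 3 of 8 on 2L. On 3L 3 of 13 rose and on 3R 1 of 15. The X chromosome had 0 of 8 and chromosome 4 had 0 of 1. Over all 7671 genes 8.75% were called higher. Shares of all genes by arm were not analysed here, so these counts are a description only. AlaRS lies on 2L from 8378262 to 8381764 (minus strand), ValRS on 2R from 13198850 to 13202709 (plus strand), MetRS on 2R from 18846858 to 18850599 (minus strand) and AspRS-m on 2L from 16827078 to 16832093 (plus strand, all BDGP6). GluRS-m (3L from 16415292 to 16417177) and TyrRS (3L from 16417349 to 16419302) lie on the minus strand with 171 bases between them. TyrRS rose (0.19 ± 0.05), and GluRS-m, with the larger log2 fold change of 0.31 ± 0.15 on 42 to 73 reads per library, did not pass.

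Regulators of translation were read from a list of 19 genes, of which 18 were measured. Of these 5 rose (27.8%) and 1 fell (5.56%), and the log2 fold changes had a median of 0.07. Over all 7671 genes 8.75% were called higher and 6.6% lower, with a median of 0.01. The list was chosen with earlier results known, so these shares are a description without a test. Thor, the fly 4E-BP that holds eIF-4E away from eIF4G, had 831, 601, 630 and 619 CPM in GlcNAc libraries, against 367, 365, 244 and 324 CPM in control libraries. Every GlcNAc library of Thor was above every control library, and Thor rose by 1.05 ± 0.14 (limma adjusted p = 0.00101), while its target eIF-4E had the value of 0.00 given above. PEK, the eIF2 alpha kinase that responds to stress of the endoplasmic reticulum, had 170, 159, 189 and 152 CPM in GlcNAc libraries, against 132, 110, 122 and 120 CPM in control libraries. PEK rose by 0.47 ± 0.08 without overlap (limma adjusted p = 0.00363), whereas Gcn2, the kinase that senses uncharged tRNA, had 0.08 ± 0.10 (limma adjusted p = 0.674). The difference between the kinases was not tested.

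The other regulators with a call were transcription factors and a scaffold. crc, the fly ATF4, had 820, 874, 879 and 830 CPM in GlcNAc libraries, against 707, 744, 680 and 746 CPM in control libraries. crc rose by 0.24 ± 0.06 without overlap (limma adjusted p = 0.0267). However, 73.5% of its exonic bases are shared with CG46314 on the same strand in the annotation used here. The call of crc was lost without GlcNAc replicate 2, 3 or 4 or control replicate 1 or 3 (adjusted p up to 0.0704). REPTOR, a transcription factor held back by the growth kinase TOR, rose by 0.42 ± 0.08 (limma adjusted p = 0.00546), with 73.6 to 81.7 CPM in GlcNAc and 50.5 to 64.1 CPM in control. NAT1, an eIF4G-like protein of initiation that does not need eIF-4E, rose by 0.28 ± 0.06 (limma adjusted p = 0.0101), with 540 to 593 CPM in GlcNAc and 455 to 494 CPM in control. foxo, a transcription factor restrained by insulin signalling, had 108, 122, 107 and 105 CPM in GlcNAc libraries, against 145, 154, 116 and 145 CPM in control libraries. Control replicate 3 fell among the GlcNAc libraries, and foxo fell by 0.33 on the log2 scale (limma adjusted p = 0.0328). That call was lost without GlcNAc replicate 1, 3 or 4 or control replicate 1, 2 or 4 (adjusted p up to 0.0919). The kinase genes Tor and S6k had 0.17 ± 0.07 and -0.30 ± 0.12 and did not pass.

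Translation factors whose names fall outside the rule had 0 calls. Of 14 listed genes 13 were measured, among them the translocase EF2, the release factor Elf (eRF3), the poly(A)-binding protein pAbp and further eIF3 subunits, with 0 calls by limma and a median of -0.02. At an unadjusted p under 0.05, 0 were higher and 1 was lower, the eIF3 subunit gene Trip1, with 295 to 328 CPM in GlcNAc and 337 to 372 CPM in control and no overlap (-0.18 ± 0.06, limma adjusted p = 0.0712). EF2 had 3107 to 3586 CPM in GlcNAc and 3184 to 4012 CPM in control (-0.11 ± 0.10). Of 7 mitochondrial initiation, elongation, recycling and release factors and related genes 6 were measured, with 0 calls by limma, 1 higher at an unadjusted p under 0.05 and a median of -0.08.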

How the data were processed

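RNA-seq of 8 intestinal samples was read from the deposited table. Per the study's methods and the submitters' processing notes, the authors trimmed single-end stranded reads with Trimmomatic, mapped them with TopHat 2.1.0 to the FlyBase genome, counted exons with HTSeq (quality under 10 discarded) and kept genes above 1 CPM in at least 3 of 4 replicates of a condition. The authors deposited log2 CPM with an offset of 0.5 read, scaled between libraries. Their own fold change, t, F and p columns were not used. Whole reads (tolerance 0.01) were recovered for 100% of 61368 values. Scaling factors ran from 0.937 to 1.03.

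All 7671 genes were fitted with limma 3.58.1 (R 4.3.3, eBayes with trend, condition as the only term), two-sided, with Benjamini-Hochberg adjustment over all genes and a threshold of 0.05. CPM were obtained as 2 raised to each deposited value. Single values were compared by exact permutation over 70 assignments. The study's methods call the samples independent without stating which cultures or animals each came from. The p-values therefore measure only the spread between these samples. Replicates differed by 9.96 to 69.0 times the sampling noise (chi-square per degree of freedom), so none was counted as a repeat. Named were all members past the threshold, the 3 highest and 3 most changed of each class, and the families. Members and lists were chosen with earlier results of these data known. Coding length, coordinates and shared exonic bases came from the Ensembl annotation of BDGP6, with 60 members matched by ID and eIF-5A by its RefSeq symbol. Coding length replaced the intended protein length. Whether the annotation that the authors counted on held the same overlapping genes was not tested. Promoter motifs were not analysed here. Alternatives were voom, no trend, other scalings, pseudocounts of 0.1 and 2 CPM, a 10 CPM filter, each library left out, a replicate block and stricter thresholds.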

Additional observations from a re-analysis of the deposited data

Results flagged for a closer look

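In 4 of 122 groups of 4 libraries (61 members in each condition), 1 library lay far from the other 3 by Dixon's criterion, which chance meets in about 1 group in 20. eIF3-S8 had 18.462 CPM in GlcNAc replicate 1, against 15.3 to 15.8 CPM in the other GlcNAc libraries. eIF2D had 48.804 CPM in GlcNAc replicate 1, against 40.6 to 41.3 CPM in the others. eIF-2alpha had 106.8 CPM in control replicate 3, against 122 to 125 CPM in the others. HisRS had 156.853 CPM in control replicate 2, against 145 to 146 CPM in the others. Of these genes eIF3-S8 had a call, which was lost without that library.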

How the results depend on the processing

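The calls of eIF-2beta, AlaRS, ValRS, MetRS, LeuRS and AspRS were kept in all 17 alternatives that change the fit. Against 12 members higher and 1 lower, leaving out each library in turn gave 6 to 10 higher and 0 to 1 lower, fewest as higher without GlcNAc replicate 1 or control replicate 3. Members called higher numbered 15 with library totals (eIF4G2, ArgRS and CysRS added), 13 with the 10 CPM filter, 11 with voom, 10 with quantile normalization, 8 with median centring, 8 without the trend, 4 at an adjusted p under 0.01 and 4 with a 1.5-fold minimum. Members called lower numbered 0 without the trend, with library totals and at both stricter thresholds, and 2 with median centring, quantile normalization and the 10 CPM filter, which added PheRS-m. Library totals leave out the scaling factors, which were 1.01 to 1.03 in GlcNAc and 0.937 to 1.02 in control. With library totals the median of all genes was 0.07, and the class medians were all higher than in the main fit. They were 0.0904 for initiation factors, -0.01 for elongation factors, 0.34 for cytosolic synthetases and 0.03 for mitochondrial synthetases. Over 15 alternatives the median ran from 0.24 to 0.34 for cytosolic synthetases, from -0.01 to 0.09 for initiation factors, from -0.14 to -0.01 for elongation factors and from -0.07 to 0.03 for mitochondrial synthetases. With the replicate number as a block, 8 members were higher and 1 lower, with eIF3-S8, eIF6, ThrRS and TyrRS lost. Over all genes the block gave 1324 calls in either direction, against 1177 in the main fit. Deviations of same-numbered libraries correlated at 0.211, 0.397, 0.151 and -0.059 for replicates 1 to 4, and 2 of 4 GlcNAc libraries correlated best with their own number. As 1 pair did not correlate, the numbers were not taken to pair the samples. No call reversed. The tests of edgeR and DESeq2 were not run, because the deposited unit is log2 CPM. Few reads limit eEF1alpha1, Ef1alpha100E, AsnRS, CysRS-m and SerRS-m.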
